A study of Mus musculus with 6 samples.

Results

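The comparison described here is injury against sham surgery in wild-type kidney, which covers 4 of the 6 arrays of the series. Its members were chosen by sample label: 2 arrays of wild-type kidney after renal ischaemia/reperfusion injury and 2 of wild-type kidney after a sham operation, all labelled male. Ischaemia/reperfusion injury is the damage that follows when blood flow to the organ is stopped and then let back in. The other 2 arrays come from Gpr97-deficient male mice, 1 after sham surgery and 1 after injury. They serve below as a pair that took no part in choosing the agreeing and opposite genes. The genes flagged near the end and an alternative count did use that pair. The sources used here do not give strain, age, how long ischaemia lasted or when kidneys were taken, and the labels leave unsaid whether both arrays of a group stand for separate mice.

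Sham array 1 and injured array 2 lay on slide 1, and sham array 2 and injured array 1 lay on slide 2. Each slide therefore gave 1 injured minus sham difference. The values are log2 of the processed spot signal minus the array's 75th percentile, and a difference of 1 is 2-fold. Each array held 41174 probes, of which 62.9% to 71.0% were well above background on the wild-type arrays and 0 spots were saturated. The number of arrays limits the precision, and any limma p-value measures only the spread between these samples, which may be technical. The labelled tissue was borne out by bright kidney transcripts on all 4 arrays: Umod, the uromodulin gene of the thick ascending limb, lay between 8.04 and 8.64, and Kap, an androgen-regulated protein of the proximal tubule, between 7.93 and 9.23. Adgrg3, the current symbol of Gpr97, was at 0.24 and 0.05 on sham arrays 1 and 2 and at 1.1 and 1.25 on injured arrays 1 and 2.

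Injured array 1 went against its labelled sex. Xist, the long RNA of X inactivation in females, was at 4.10 on that array and was not well above background on the other 5, at -5.38 or lower. The Y-linked genes Ddx3y, Eif2s3y, Kdm5d and Uty were not well above background on injured array 1 alone, with Ddx3y at -7.39 there and at 1.21, 1.52 and 1.25 on sham arrays 1 and 2 and injured array 2. The slide 2 difference therefore compares an array with Xist and without the Y-linked signals with a sham array of the opposite pattern. On slide 1 both arrays had the Y-linked signals. Results are given per slide so that each can be read with and without injured array 1, and sex and injury cannot be told apart in the slide 2 pair.

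The slides also differed in immunoglobulin transcripts, the antibody messages of plasma cells. Of 18 genes with an immunoglobulin symbol, a group picked after its values were seen, 14 were at least 2-fold higher on both slide 2 arrays than on both slide 1 arrays and 0 the other way, against 1.46% and 2.43% of all 18748 genes with a value on every wild-type array. Igkv4-59, a kappa variable segment, was at -6.53 and -6.60 on the slide 1 arrays, sham and injured, and at -0.01 and 0.16 on the slide 2 arrays. Jchain, which joins antibody units, was at -4.26 and -3.51 on slide 1 and at 3.26 and 2.76 on slide 2. Within slides 1 and 2 Jchain differed by 0.75 and -0.51 between injured and sham. Other members differed more within a slide, such as Ighm, the mu heavy chain, by -2.11 and -1.49, and Iglv1, a lambda segment, by 2.40 and 0.92. The Gpr97-deficient arrays, both on slide 2, had Jchain at 1.37 and 1.24.

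Ischaemia harms first the proximal tubule, the segment that reclaims most of the filtrate and that depends on mitochondrial respiration. Surviving tubule cells lose transport and metabolic functions for a time, spread over the bare basement membrane and divide, while injured epithelium and endothelium draw in neutrophils and later macrophages. Widely used transcripts of this response, such as Havcr1, Lcn2, Krt20 and Sox9, were set aside here as a list of 41 classic injury markers, and the account turns to the other genes. Of the 40 measured, all were higher in both pairs, 30 of them at least 2-fold (28.0% and 1.93% of all genes). The median difference was 3.05 on slide 1 and 2.39 on slide 2. The list was chosen with earlier results of these data known, and 35 of the 40 were well above background on all 4 arrays. Where whole tissue is measured, fewer cells of a type and less RNA per cell cannot be told apart.

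The sequences below show upstream regions of 4 genes that differed in the same direction in both pairs, and the probe behind the sex check. The 4 genes were chosen because each holds a short motif bound by transcription factors that are named after the sequences. Each region is the 250 bases before the annotated start, from RefSeq with build GRCm38.p6, written 5′ to 3′ on the strand of the gene, with motif matches on either strand in capitals. Il1rn lies at chr2:24336610-24336859 (plus strand, 1 of 3 listed starts), Ccl20 at chr1:83116516-83116765 (plus strand), Ciart at chr3:95882229-95882478 (minus strand) and Cldn4 at chr5:134946935-134947184 (minus strand).
Il1rn, AP-1 site TGANTCA: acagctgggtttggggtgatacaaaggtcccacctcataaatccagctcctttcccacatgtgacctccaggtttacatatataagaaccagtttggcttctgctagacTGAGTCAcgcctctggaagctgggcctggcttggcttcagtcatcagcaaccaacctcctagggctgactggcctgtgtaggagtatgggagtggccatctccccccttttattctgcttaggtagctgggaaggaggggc
Cldn4, AP-1 site TGANTCA: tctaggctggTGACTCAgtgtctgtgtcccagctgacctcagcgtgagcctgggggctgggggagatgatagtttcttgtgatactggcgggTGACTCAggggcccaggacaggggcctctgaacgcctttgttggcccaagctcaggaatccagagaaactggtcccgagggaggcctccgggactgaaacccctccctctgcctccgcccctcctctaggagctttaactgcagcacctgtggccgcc
Ccl20, NF-kappaB site: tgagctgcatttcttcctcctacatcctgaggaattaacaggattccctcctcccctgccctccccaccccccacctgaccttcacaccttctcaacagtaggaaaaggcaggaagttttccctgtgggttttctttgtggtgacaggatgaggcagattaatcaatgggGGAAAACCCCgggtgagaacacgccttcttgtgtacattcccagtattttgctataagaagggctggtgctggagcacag
Ciart, E-box CACGTG: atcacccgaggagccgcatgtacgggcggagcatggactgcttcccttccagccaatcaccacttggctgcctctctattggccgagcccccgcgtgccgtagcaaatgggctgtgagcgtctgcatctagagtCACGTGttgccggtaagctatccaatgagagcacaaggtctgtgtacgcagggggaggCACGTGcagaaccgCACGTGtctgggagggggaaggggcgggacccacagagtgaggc
Xist probe, 60 bases, chromosome X, 100658920 to 100658979 in mm9: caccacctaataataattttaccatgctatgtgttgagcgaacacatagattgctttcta
AP-1 sites are bound by Fos and Jun proteins, the NF-kappaB motif searched here (GGG, any 2 bases, TTTCC) by Rel proteins, and the E-box by the clock factors Clock and Bmal1. Ciart holds 3 copies of the E-box, at 116, 58 and 44 bases before its start, and Cldn4 holds 2 copies of the AP-1 motif. In the same window the AP-1 motif occurs in 6.75%, the NF-kappaB motif in 1.41% and the E-box in 6.02% of 32851 RefSeq promoters. Of the 242 genes at least 2-fold higher in both pairs that have a promoter in that table, 22 hold the AP-1 motif and 8 the NF-kappaB motif, 9.09% and 3.31%, against 4.64% and 1.35% of the 11993 tested genes with one. Of the 198 such genes lower in both, 7.07% hold the AP-1 motif, also above the tested genes, and 8.08% the E-box, against 8.06% of tested genes. A match is a description of letters, not a binding site. The E-box was held by 4.55% of genes higher in both. In all 6 motifs were searched, also the D-box (TTANGTAA), the STAT motif (TTCNNNGAA) and the CCAAT box. They were held by 1.65%, 7.02% and 33.5% of genes higher in both and 2.53%, 7.07% and 30.3% of those lower. Among tested genes the shares were 1.47%, 6.1% and 36.1%. These shares were not tested.

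By limma, 0 of 18754 genes passed for injury in wild type at an adjusted p under 0.05 (0.0%), and 1222 had an unadjusted p under 0.05 (6.52%, 649 higher and 573 lower). With slide as a block 0 passed and 1970 had an unadjusted p under 0.05. The exact permutation test of 2 arrays against 2 cannot go below a two-sided p of 0.333. The genes below are therefore described by their size and by whether both pairs showed it, and "higher" or "lower" is not a call.

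Genes at least 2-fold higher in both pairs, with the brighter array of each pair well above background, numbered 361 (1.93% of 18748), and those at least 2-fold lower in both numbered 281 (1.5%). In opposite directions by 2-fold were 140 genes (0.747%), 31 higher on slide 1 and lower on slide 2 (0.165%) and 109 the reverse (0.581%). Alone, the slide 1 pair had 1158 genes at least 2-fold higher (6.18%) and 1678 lower (8.95%), and the slide 2 pair 1036 higher (5.53%) and 756 lower (4.03%). At any size 28.0% of genes were higher in both pairs, 32.6% lower in both and 39.4% opposite. These shares are the background for the counts of list members below. All 4 arrays kept injury apart from sham by 2-fold in either pairing for 217 genes above (1.16%) and 145 below (0.773%). Taken over genes, which do not stand for replicates, the slide 1 and slide 2 differences had Pearson's r 0.343 and Spearman's rho 0.300. Of the 361 genes 343 and of the 281 genes 255 were also at least 2-fold apart, in the same direction, between injured array 2 and each sham array. That comparison leaves out the array with Xist, but its difference from sham array 1 is the slide 1 value that chose these genes, so only the difference from sham array 2 is a further one.

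**Figure D1:**
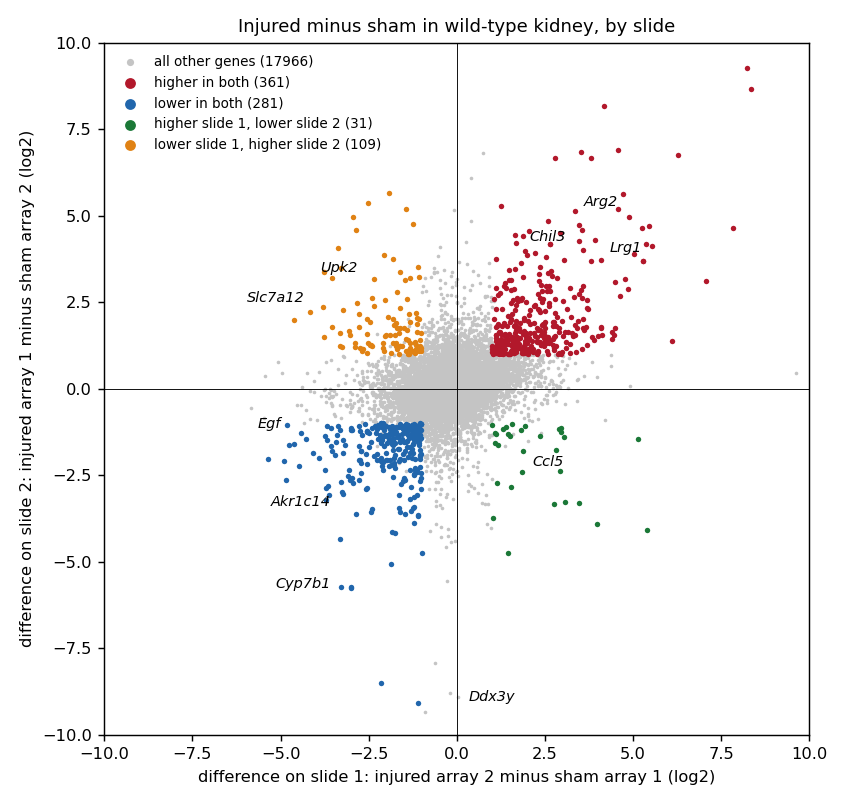
Injured minus sham difference (log2) on slide 1 (x axis) against slide 2 (y axis) for each of 18748 genes; red and blue points are genes at least 2-fold higher or lower in both pairs, green and orange points genes at least 2-fold apart in opposite directions, and the other genes are grey. The 361 red and 281 blue points outnumber the 31 green and 109 orange ones, and Ddx3y lies far below 0 on slide 2 only.

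The Gpr97-deficient pair, which shares slide 2 but no array with the wild-type pairs, gave a separate look at these genes in another genotype. Of the 361 genes 313 were higher after injury there (86.7%, against 44.5% of all genes) and 225 at least 2-fold higher (62.3%, against 4.23%). Of the 281 genes 235 were lower (83.6%, against 55.5%) and 129 at least 2-fold lower (45.9%, against 4.55%). In the opposite direction by 2-fold were 15 and 11 genes, 4.16% and 3.91%, close to the 4.55% and 4.23% of all genes. Genotype is not the same in that pair, so a gene that differs there cannot be told apart from an effect of Gpr97 or of the single arrays.

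Among the secreted and immune genes, Lrg1, a leucine-rich glycoprotein released by injured and inflamed tissue, was well above background on every array. Its probe (NM_029796, chromosome 17, 56259257 to 56259316 in mm9) was at 0.41 and -0.24 on sham arrays 1 and 2 and at 3.50 and 4.50 on injured arrays 1 and 2. The difference was 4.09 on slide 1 and 3.73 on slide 2, with a mean of 3.91 (SE 0.47), and the groups lay far apart. Chil3, a chitinase-like lectin made by myeloid cells (NM_009892, chromosome 3, 105950485 to 105950544 in mm9), was at -3.06 and -3.58 after sham surgery and at 0.44 and 0.53 after injury. Its arrays within a group lay closer together than those of Lrg1, and the difference was 3.80 (SE 0.29). In the Gpr97-deficient pair, where Lrg1 was at 0.49 and 4.71, Chil3 was at 0.54 after sham surgery and 0.85 after injury, so its sham level there was as high as the wild-type injured level. Limma's adjusted p was 0.748 to 0.756 for the 37 genes chosen for the largest agreeing differences or the largest moderated t.

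The signals of Il1rn, Ccl20, Clec4d and Cxcr2 were not well above background on either sham array and were above it on both injured arrays, so their size is a lower bound. Il1rn, the natural antagonist of interleukin-1 receptors, was at least 8.74-fold higher on slide 1 and at least 7.83-fold higher on slide 2. Ccl20, the ligand of the chemokine receptor CCR6, was at least 10.2-fold higher on slide 1 and at least 4.17-fold on slide 2. Clec4d, a C-type lectin of myeloid cells, was higher by at least 7.81-fold and at least 13.2-fold, and Cxcr2, the receptor by which neutrophils follow CXC chemokines, by at least 2.2-fold and at least 3.74-fold. These 4 genes were above background only after injury in both pairs.

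Of the 10 measured neutrophil markers 7 were higher in both pairs, all 7 of them by 2-fold (28.0% and 1.93% of all genes), with medians of 1.85 on slide 1 and 3.06 on slide 2. S100a8, a calcium-binding protein stored by neutrophils, was at -0.70 and -1.19 on the sham arrays and at 2.67 and 1.29 on injured arrays 1 and 2. The summed level of the list was 1.92 and 1.39 after sham surgery and 4.95 and 3.72 after injury. Camp and Ltf, genes of neutrophil granule proteins, were well above background on 2 of the 4 arrays each. Ngp, Mmp8, Mmp9 and Elane were below the filter on low signals, Ly6g was matched to no probe, and 4 of the 10 measured markers were well above background on all 4 arrays, so the others could pass only through the arrays on which they were high. The part of neutrophil number in the levels of Clec4d and Cxcr2 was not tested. In the Gpr97-deficient pair the median of the list was -0.42.

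Macrophage markers were less uniform: 4 of 15 were higher in both pairs, 5 lower in both and 6 opposite (28.0%, 32.6% and 39.4% of all genes). Cd68, a lysosomal protein of macrophages, was 3.30 higher on slide 1 and 1.53 on slide 2, and Trem2, a lipid receptor of macrophages, 1.31 and 1.37. Their levels after injury were above those after sham surgery on all arrays, with Trem2 at -2.98 and -1.94 against -0.56 and -1.66. Csf1r, another marker of the list, was lower in both pairs, by 0.85 on slide 1 and 0.74 on slide 2. The others lower in both, by less, were Lyz2, Adgre1, Cx3cr1 and Cd163.

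Enzymes followed among the genes with the largest agreeing differences. Arg2, the mitochondrial arginase that splits arginine into ornithine and urea (NM_009705, chromosome 12, 80252972 to 80253031 in mm9), was at -0.81 and -2.78 on the sham arrays and at 2.36 and 2.54 on the injured arrays. The difference was 3.36 on slide 1 and 5.13 on slide 2, because the sham arrays lay apart while the injured arrays were close. Cbr3, a carbonyl reductase, was at 0.34 and -0.38 after sham surgery and at 2.79 and 5.10 after injury, 4.76 higher on slide 1 and 3.17 on slide 2. Both genes were also higher in the Gpr97-deficient pair, by 3.17 and 2.89.

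Other transcripts stood in the same group at low signals. Crct1, a small protein of stratified epithelium, was at least 31.8-fold higher on slide 1 and at least 2.35-fold on slide 2. Smpdl3b, a membrane phosphodiesterase that acts on lipids, was at least 5.69-fold higher on slide 1 and at least 3.07-fold on slide 2. Grp, the gastrin-releasing peptide, exceeded sham by at least 6.1-fold and at least 8.03-fold. Lgi2, a secreted leucine-rich protein, was above background on sham array 1 at -3.74 and not on sham array 2, and stood at -1.13 and -0.23 on the injured arrays. Tmem145, a transmembrane protein, had the same pattern, at -3.83 on sham array 1 and at -1.47 and -0.35 after injury. Tas2r102, a bitter taste receptor, was above background on both injured arrays, at -3.65 and -2.77. Its signal was not well above background on either Gpr97-deficient array. Spaca7, a gene of the sperm acrosome, was well above background on all 4 arrays, at -3.69 and -3.78 after sham surgery and -1.49 and -1.37 after injury, a difference of 2.31 (SE 0.23). Zcwpw2, which encodes a zinc finger protein, exceeded sham by at least 1.19-fold and at least 3.51-fold.

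**Figure D2:**
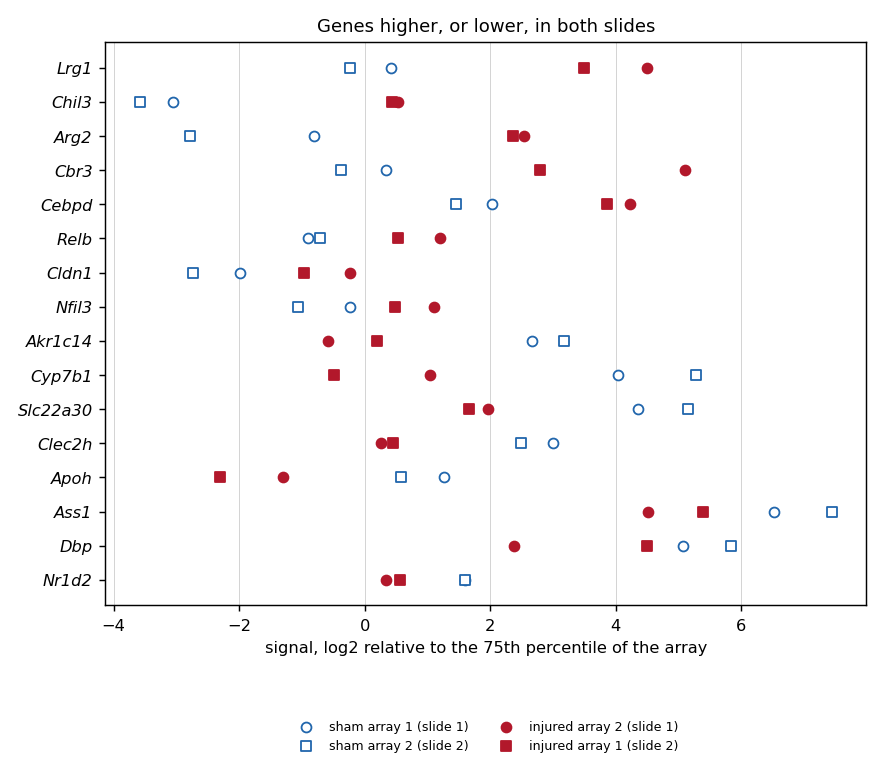
Signal (log2, relative to each array's 75th percentile, x axis) of named genes on the 4 wild-type arrays; open symbols are sham, filled symbols injured, circles slide 1 and squares slide 2. For Chil3 the sham arrays lie at -3.06 and -3.58 and the injured arrays at 0.44 and 0.53, while for Dbp the injured arrays lie apart, at 4.50 and 2.38.

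Genes lower in both pairs held many enzymes and transporters of the tubule. Akr1c14, a hydroxysteroid dehydrogenase (NM_134072, chromosome 13, 4089196 to 4089255 in mm9), was at 2.66 and 3.18 on the sham arrays and at 0.19 and -0.58 on the injured arrays, a difference of -3.11 (SE 0.39). Slc22a30 and Slc22a28, members of the organic anion transporter family, were at 4.36 and 5.14 and at 4.28 and 4.91 after sham surgery. After injury they were at 1.67 and 1.96 and at 1.35 and 1.85, and the groups lay over 2-fold apart for both. In the Gpr97-deficient pair these 3 genes differed less, by -0.05 for Akr1c14, -0.80 for Slc22a30 and -0.69 for Slc22a28, with sham levels of 0.42, 3.16 and 2.99.

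Cyp7b1, an oxysterol hydroxylase whose kidney level is higher in males, was at 4.04 and 5.28 on the sham arrays, at -0.50 on injured array 1, the array with Xist, and at 1.03 on injured array 2. It was 3.0 lower on slide 1, where both arrays had the Y-linked signals, and 5.77 lower on slide 2. In the Gpr97-deficient pair it was 0.94 higher. Clec2h, a C-type lectin, was at 3.0 and 2.49 after sham surgery and at 0.45 and 0.26 after injury, a difference of -2.39 (SE 0.29).

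Secreted proteins were a further group. Apoh, a lipid-binding glycoprotein of plasma, was at 1.27 and 0.58 on the sham arrays and at -2.31 and -1.30 on the injured arrays. Proz, a vitamin K-dependent cofactor of coagulation control, was at 0.94 and 1.84 and at -0.85 and -2.35. C1qtnf3, a secreted protein related to complement C1q, was at 0.68 and 1.92 and at -0.80 and -2.26. In each of these 3 genes both injured arrays lay at least 2-fold below both sham arrays. Chrdl1, a secreted antagonist of bone morphogenetic proteins (NM_031258, chromosome X, 139731809 to 139731868 in mm9), was at -1.39 and -1.34 on the sham arrays. It was at -3.92 on injured array 1 and not well above background on injured array 2. It was therefore at least 7.86-fold lower on slide 1, and 2.58 lower (log2) on slide 2. In the Gpr97-deficient pair it was 1.72 higher.

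Lower-signal genes closed the group. Smcp, a sperm mitochondrial protein, was at -0.60 and 0.73 after sham surgery and -2.50 on injured array 1, and at least 13.1-fold lower on slide 1. Rfx3, a transcription factor of ciliary genes, was at -0.97 and -2.44 after sham surgery and 3.23 lower on slide 1, and at least 7.93-fold lower on slide 2. Dcst1, a transmembrane protein, was at -2.0 and -1.97 against -4.32 and -4.09. Upp2, a uridine phosphorylase, was above background on the sham arrays only, at least 2.03-fold and at least 12.2-fold lower after injury. Pnliprp1, a lipase-related protein, was 2.64 lower on slide 2. Rhox6, a reproductive homeobox gene, was at least 3.31-fold lower on slide 1 and at least 14.3-fold lower on slide 2, and its relative Rhox9 was above background on the sham arrays only. Muc3, a mucin, Olfr155, an odorant receptor, and Cyp2b9, a cytochrome P450, were above background on the sham arrays only, with bounds of 1.69-fold to 3.04-fold. The direction of Muc3, Olfr155, Upp2, Cyp2b9 and Pnliprp1 turned under another background correction, normexp, at 0.47, 0.55, 0.12, 0.65 and 0.35.

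Of 27 genes of amino acid breakdown 17 were lower in both pairs (32.6% of all genes), 3 higher in both and 7 opposite, with medians of -1.27 on slide 1 and -0.44 on slide 2. Ass1, which makes argininosuccinate on the way to arginine, was at 6.52 and 7.44 on the sham arrays and at 5.40 and 4.51 on injured arrays 1 and 2, 2.02 lower on slide 1 and 2.05 on slide 2. Pipox, a peroxisomal oxidase of pipecolate and sarcosine, was 1.34 lower on slide 1 and 1.35 on slide 2. For both enzymes every injured array lay below every sham array, whereas Arg2, which uses arginine, was higher as given above.

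Genes of NAD synthesis and the kynurenine pathway were lower in both pairs for 9 of 12 (32.6% of all genes), with medians of -0.93 and -0.42. Qprt, which turns quinolinate into a NAD precursor, was 1.12 lower on slide 1 and 0.98 on slide 2, and Haao, the enzyme before it, 1.06 and 0.78. Sord, the sorbitol dehydrogenase, was 2.10 lower and 1.01 lower. Transporters of the early proximal tubule were lower in both pairs for 11 of 14, with medians of -1.27 and -0.52. Slc34a3 and Slc34a1, sodium phosphate cotransporters, were 3.36 and 2.15 lower on slide 1 and 1.09 and 0.99 lower on slide 2. Slc6a19, a neutral amino acid transporter, was at 3.06 and 3.35 after sham surgery and at 1.95 and 0.89 after injury. Its relative Slc6a20b was 1.62 lower on slide 1 and 1.02 on slide 2.

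Genes of inflammatory signalling inside cells were mostly higher in both pairs. Of 12 NF-kappaB regulators and targets 11 were higher in both (28.0% of all genes), with medians of 0.99 and 0.60. Relb, a Rel family subunit, was at -0.90 and -0.72 on the sham arrays and at 0.53 and 1.20 on the injured arrays, and Nfkb2, the precursor of its partner, was 2.01 higher on slide 1 and 1.16 on slide 2. Of 11 genes of IL-6 and OSM signalling 9 were higher in both, 5 of them by 2-fold, with medians of 1.20 and 0.49. Cebpd, a transcription factor of the acute phase, was at 2.03 and 1.46 after sham surgery and at 3.86 and 4.23 after injury. Osmr, the oncostatin M receptor, was 1.74 higher on slide 1 and 1.44 on slide 2, and Bcl3, a nuclear partner of NF-kappaB, 3.20 and 1.02.

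Genes for cell shape and attachment were mostly higher in both pairs. Of 20 actin cytoskeleton genes 18 were higher in both pairs and 0 lower in both (28.0% and 32.6% of all genes). Their medians were 0.90 and 0.47. Actn1, an actin cross-linker, was at -1.20 and -1.53 against -0.09 and 0.34. Capg, which caps actin filaments, was 1.38 higher on slide 1 and 3.06 on slide 2, and Tmsb10, which holds actin monomers, 1.56 and 1.49. Flna, a filamin, was 1.32 and 1.0 higher. Of 16 integrin and laminin genes 14 were higher in both, among them the fibronectin receptor subunit Itga5 by 2.27 and 1.38 and the laminin receptor subunit Itga3 by 1.38 and 1.02. Of 15 tight junction genes 10 were higher in both. Cldn1, a sealing claudin, was at -1.99 and -2.73 after sham surgery and at -0.97 and -0.23 after injury, 1.75 and 1.76 higher. Cldn4, a claudin of the distal nephron, was 1.76 and 1.30 higher.

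Matrix genes and TGF-beta family ligands included several agreeing members. Of 15 fibroblast and matrix genes 11 were higher in both pairs, with medians of 0.63 and 1.04, among them Tnc, tenascin C, by 2.27 and 1.76, Col5a1 by 1.22 and 1.64 and Col1a1 by 1.04 and 2.60. Of 21 genes of TGF-beta and BMP signalling 10 were higher in both and 5 lower in both, against 28.0% and 32.6% of all genes. Inhba, an activin subunit, was at least 8.61-fold higher on slide 1, where the sham array was not well above background, and 1.62 higher (log2) on slide 2. Inhbb, another activin subunit, was 2.59 and 1.40 higher.

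Of 15 genes listed as targets of the transcription factor ATF4 or as tRNA synthetases 13 were higher in both pairs (28.0% of all genes). The medians were 0.55 and 0.72. Psat1, an enzyme of serine synthesis, was 1.72 higher on slide 1 and 1.73 on slide 2, and Slc7a5, a transporter of large amino acids, 1.92 and 1.37. Smox, the spermine oxidase, was 2.30 and 1.1 higher. Cidec, a lipid droplet protein, was at -2.12 and -4.02 after sham surgery and at -0.23 and 0.42 after injury.

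Several clock output genes were lower in both pairs. Of 15 clock genes 7 were lower in both and 4 higher in both (32.6% and 28.0% of all genes), with medians of -0.53 and 0.01. Dbp, a clock-driven transcription factor, was at 5.07 and 5.83 on the sham arrays and at 4.50 and 2.38 on injured arrays 1 and 2. Ciart, a repressor within the clock whose 3 E-boxes are printed above, was at least 7.63-fold lower on slide 1, where the injured array was not well above background, and 1.48 lower (log2) on slide 2. Nr1d2, the Rev-erb beta receptor, was at 1.60 on both sham arrays and at 0.56 and 0.34 after injury. Nfil3, a repressor that binds the same sites as Dbp, was at -0.23 and -1.06 after sham surgery and 0.49 and 1.11 after injury. In the 250 bases before the first listed start, Dbp, Nr1d2 and Nfil3 held 0 copies of the E-box. The sources used here give no time of day, and its part in these genes was not tested.

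**Figure D3:**
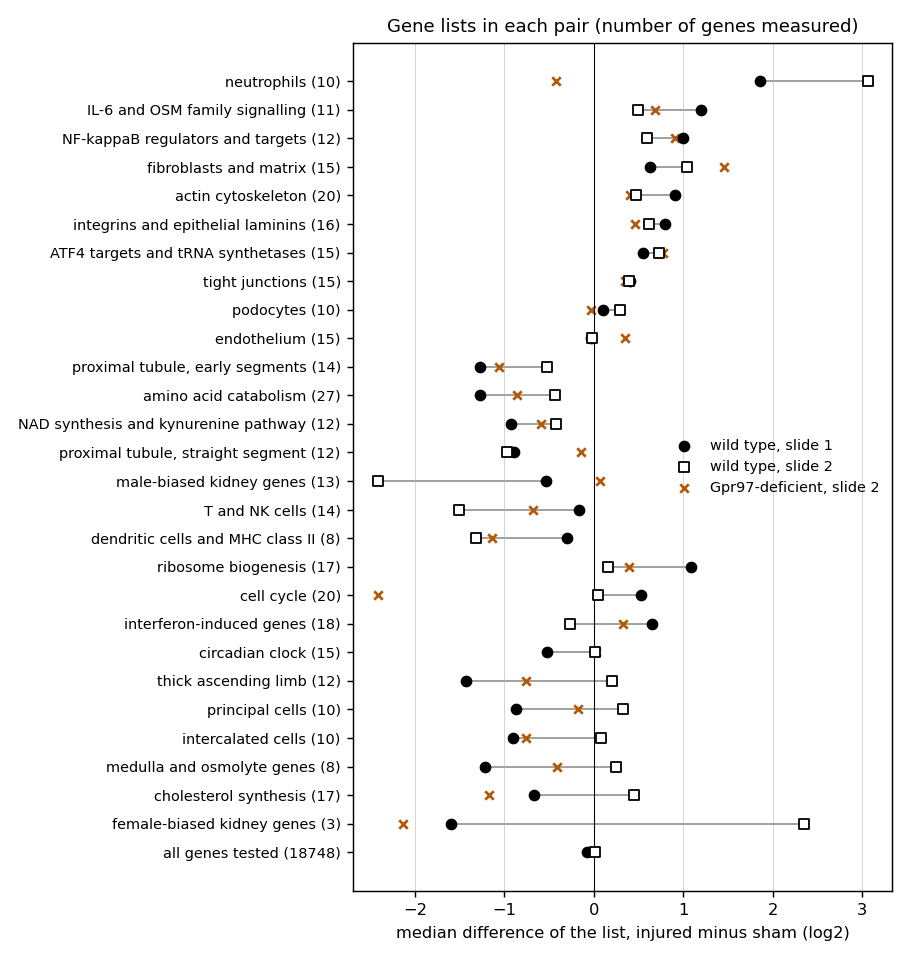
Median injured minus sham difference (log2, x axis) of gene lists and of all genes in the wild-type slide 1 pair (circles), the wild-type slide 2 pair (squares) and the Gpr97-deficient pair (crosses), with the number of measured genes in brackets. Inflammatory signalling, actin and integrin lists lie to the right of 0 in both wild-type pairs, while the thick ascending limb list lies at -1.43 on slide 1 and 0.20 on slide 2.

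The list of the distal convoluted and connecting tubule did not divide the pairs, while other lists of the distal nephron did. Of its 11 genes 7 were lower in both pairs (32.6% of all genes), 1 higher in both and 3 opposite. Its medians were -0.54 and -0.14. All 12 thick ascending limb genes were lower on slide 1, with a median of -1.43, and 8 of them were higher on slide 2, where the median was 0.20. Thus 4 were lower in both pairs and 8 opposite, against 32.6% and 39.4% of all genes, the latter in either order. Egf, whose epidermal growth factor is made in this segment, was at 6.37 and 6.60 on the sham arrays, at 5.31 on injured array 1 and at 1.94 on injured array 2. It was the only member at least 2-fold lower in both. Cldn19, a claudin of cation-selective junctions, was 1.18 lower on slide 1 and 1.02 higher on slide 2, and Nos1, the neuronal nitric oxide synthase, 0.71 lower and 1.22 higher. Principal cell genes had medians of -0.87 and 0.33, with the water channel Aqp2 at 4.03 and 3.09 on the sham arrays and 4.25 and 2.88 on the injured arrays, so the 2 surgeries overlapped. Scnn1a, a subunit of the epithelial sodium channel, was 1.04 lower and 0.53 higher. Intercalated cell genes had medians of -0.90 and 0.08, with the anion exchanger Slc4a1 at -0.88 on injured array 2 alone and at 1.69 to 2.26 on the other 3.

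The 8 medullary genes had medians of -1.22 on slide 1 and 0.25 on slide 2. Slc6a12, a betaine transporter that loads osmolytes into medullary cells, was at -0.11 and -2.34 on sham arrays 1 and 2 and at -0.57 and -3.65 on injured arrays 1 and 2. The sham arrays differed from each other by over 2-fold, and the surgeries overlapped. The part of unequal shares of medulla in the pieces of kidney was not tested.

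Cholesterol synthesis was lower on slide 1 for 16 of 17 genes and higher on slide 2 for 11 of them, with medians of -0.67 and 0.45. Of the 17 genes 5 were lower in both pairs and 12 opposite in either order (32.6% and 39.4% of all genes). Cyp51, a sterol demethylase, was lower in both, by 2.19 and 1.33, as was Idi1, an isomerase early in the pathway, by 0.98 and 1.43. Insig1, which holds back sterol synthesis, was 1.93 lower on slide 1 and 0.91 higher on slide 2, and Fdft1, the squalene synthase, 0.64 lower and 1.05 higher. The Gpr97-deficient pair had a median of -1.17.

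Ribosome biogenesis differed in size more than in sign. Of 17 genes 13 were higher in both pairs and 4 opposite, higher on slide 1 only (28.0% of all genes, and 39.4% in either order). The medians were 1.09 and 0.16. Noc4l, a ribosome assembly factor, was 1.29 higher on slide 1 and 0.39 on slide 2. Ncl and Npm1, the abundant nucleolar proteins, were 0.92 and 0.77 higher on slide 1 and 0.15 and 0.20 lower on slide 2. Of 20 cell cycle genes 10 were higher in both pairs, 3 lower in both and 7 opposite (28.0%, 32.6% and 39.4% of all genes). Their medians were 0.52 and 0.04, and -2.41 in the Gpr97-deficient pair. Mcm5, a subunit of the replication helicase, was 0.79 and 1.42 higher, and Ccne1, cyclin E1, 1.01 and 1.14. The proliferation marker Mki67 was at -2.47 and -0.52 on the sham arrays and -1.09 and -1.50 after injury, within the sham range.

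Interferon-induced genes were higher in both pairs for 6 of 18, near the 28.0% of all genes. Of the 18 genes 10 were opposite in either order (39.4% of all genes), 9 of them higher on slide 1 but lower on slide 2. The medians were 0.65 and -0.26. Cxcl10, a chemokine for T cells, was 1.55 and 0.79 higher. Ifit1, which binds viral RNA, was 1.28 higher on slide 1 and 0.80 lower on slide 2, and Zbp1, a nucleic acid sensor, 0.99 higher and 1.35 lower. Of 14 T and NK cell genes 4 were well above background on all 4 arrays, so the slide 1 sign of several others compares signals near background. The list median was -1.50 on slide 2. Their summed level was 3.62 on sham array 2, 1.87 on injured array 1 and 0.47 on injured array 2, and lowest on sham array 1. Ccl5, a chemokine of activated T and NK cells, was at -2.42 and 2.94 after sham surgery and 1.13 and -0.53 after injury. The part of T and NK cell number in the slide 2 differences of interferon-induced genes was not tested.

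Sex-biased kidney genes also separated the pairs. Of 13 male-biased genes 11 were lower in both pairs (32.6% of all genes). But their medians were -0.53 and -2.41 on slides 1 and 2, and 0.07 in the Gpr97-deficient pair. Slc7a13, an amino acid transporter of the straight proximal tubule, was at 3.73 and 5.26 on the sham arrays, at -3.23 on injured array 1 and at 1.58 on injured array 2. Cyp2e1, a cytochrome P450, was 1.75 lower on slide 1 and 4.17 lower on slide 2, while Akr1c21, a hydroxysteroid dehydrogenase, was 2.49 and 1.69 lower, the larger value on slide 1. Timd2, a ferritin receptor of the kidney, was 1.84 higher on slide 1 and 2.41 lower on slide 2. The 3 female-biased genes went the other way on slide 2 only, with medians of -1.60 on slide 1 and 2.35 on slide 2. Slc7a12, an amino acid transporter, was at 3.78 and 2.22 on the sham arrays and at 4.58 and -0.02 on injured arrays 1 and 2. Prlr, the prolactin receptor, was at 0.46 and -1.85 on the sham arrays and at 0.49 and -1.14 on injured arrays 1 and 2. Its level on sham array 1 was thus near that on injured array 1. Prlr was 1.60 lower on slide 1 and 2.33 higher on slide 2. Cyp4a14 was 0.47 lower on slide 1 and 4.09 higher on slide 2, where sham array 2 alone was low. Slc7a12 and Prlr were also lower in the Gpr97-deficient pair, by 4.47 and 2.14.

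Opposite 2-fold differences can arise only where the arrays of at least 1 group lie 2-fold apart, so the 140 genes with them differ within a group by construction. The sham arrays were at least 2-fold apart for 114 and the injured arrays for 101, with 75 in common, against 13.4% and 16.6% of all genes, and 62 of the 140 were well above background on all 4 arrays. Cyp24a1, the enzyme that breaks down vitamin D, was at -1.59 on sham array 1 and at 2.81, 1.35 and 3.55 on sham array 2 and injured arrays 1 and 2. Hence it was 5.14 higher on slide 1 and 1.46 lower on slide 2, and sham array 1 alone was low. Gbp6, a guanylate-binding protein, was brightest on sham array 2, at -0.68, and below background on sham array 1.

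Several opposite genes had a signal on only 1 array of each surgery. Kcnd1, a potassium channel gene, Chst5, a sulfotransferase, Cntnap5a and Cdh8, neural adhesion molecules, and Phxr2 were well above background only on sham array 2 and injured array 2 among the wild-type arrays. Kcnd1 was at -2.76 and -1.29 there, and Chst5 at -3.36 and -2.19. Kcnh1, another potassium channel gene, was not well above background on sham array 1 alone. In the reverse direction Prok2, Tmem132cos, Nanos2, Olfr1500, Ifne and Jakmip3 were above background on sham array 1 and injured array 1 only among the wild-type arrays. The slide 1 direction of these 6 genes and of Cfap52 turned under normexp. Prok2, the chemokine-like prokineticin 2, was at -3.16 and -3.78 there, and Ifne, an interferon of epithelia, at -3.50 and -2.81. Cfap52, a protein of motile cilia, was well above background on all 4 arrays, at -1.17 and -3.47 after sham surgery and -1.08 and -3.52 after injury.

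**Figure D4:**
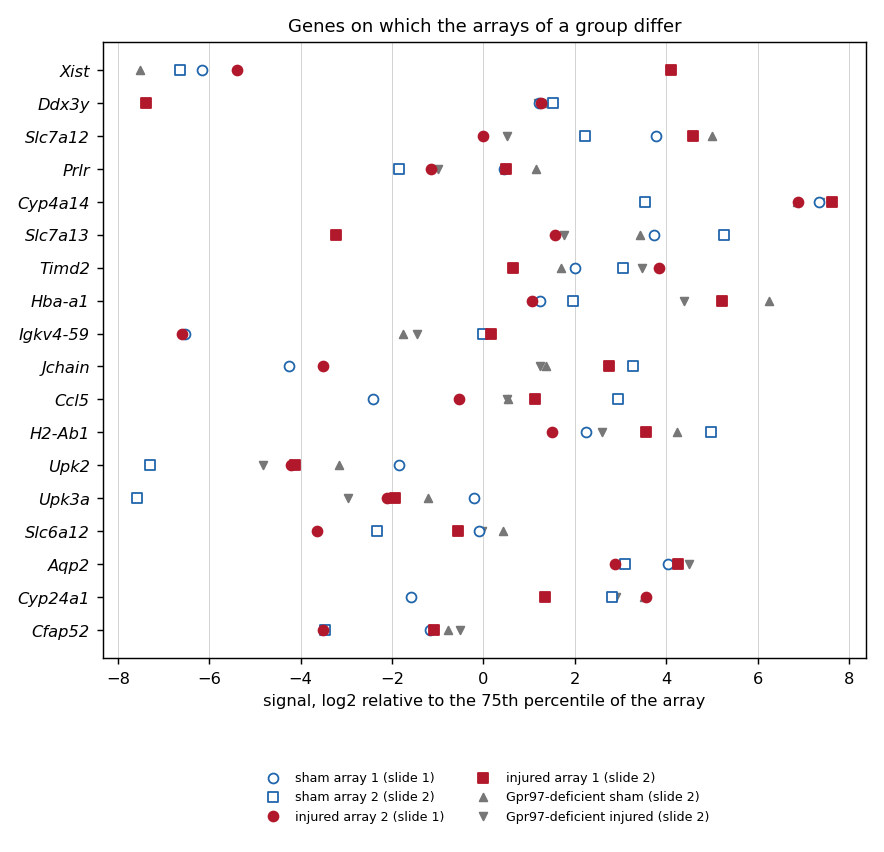
Signal (log2, relative to each array's 75th percentile, x axis) of genes on which arrays of a group differ, chosen after their values were seen; open blue symbols are sham and filled red symbols injured wild-type arrays, circles slide 1, squares slide 2, and grey triangles the Gpr97-deficient arrays. Xist is bright on injured array 1 only, at 4.10, Jchain is at -4.26 and -3.51 on the slide 1 arrays, and Upk2 is lowest on sham array 2.

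Podocyte and endothelial genes differed little. Of 10 podocyte genes 7 were higher in both pairs (28.0% of all genes), with medians of 0.10 and 0.29, and 0 were 2-fold apart in both. Of 15 endothelial genes 4 were higher and 5 lower in both (28.0% and 32.6% of all genes). Their medians were -0.03 and -0.02, near 0 and of no settled sign across settings. Over all genes the medians were -0.08 and 0.02.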

How the data were processed

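Processed spot intensity was taken from the deposited scanner files, which per the file headers were made with Feature Extraction 10.7.1.1 (slide 1) and 10.7.3.1 (slide 2), protocol GE1_107_Sep09, with positions in mm9. The authors' deposited series values track the scanner signals of each array (Spearman's rho at least 0.9999) and were read as log2 values; their normalization and centring are unknown. Columns that flag background, saturation and outliers are other values of the deposited scanner files. The submitters' processing notes name limma.

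Signals were set to log2 minus the 75th percentile of the array, without control or outlier spots. Of 41174 probes 27668 were named by accession, 5589 by symbol and 471 by synonym in the RefSeq gene table, and 7446 kept the file's name. A gene took its brightest probe over the 4 wild-type arrays and was tested if well above background on at least 2. Where a group or array was not above background, "at least" gives the bound against the higher of the probe's signal and the lowest signal well above background. The two-sided test was that of limma (version 3.58.1, under R 4.3.3), with Benjamini-Hochberg adjustment and 2 residual degrees of freedom (1 with slide as a block). A summed level is log2 of the sum of the members' linear signals. On simulated data limma called 28 of 50 genes at a log2 difference of 4 and 1 of 50 at 2. It also called 2 of 18548 unchanged genes. The simulated noise was normal and independent, with each gene's spread taken from its arrays and no slide or sex difference. The share of changed genes in the real data is unknown, so these counts hold for that setting only.

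The comparison, the 49 lists and the rules were chosen with earlier results of these data known. Named are the 15 genes with the largest smaller-of-2 difference higher in both pairs and 15 lower, the 10 and 10 in opposite directions, up to 4 agreeing and 2 opposite genes of a list, the 5 with the largest moderated t each way, and the sex check; classic markers and predicted genes were left out. Igkv4-59, Jchain, Ighm, Iglv1, Umod, Kap, Camp, Ltf and genes of the Additional observations were chosen after their values were seen, and some named genes are not reported here. The slide, taken from the headers, is the pair.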

Additional observations from a re-analysis of the deposited data

Results flagged for a closer look

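In 6 of the named genes the Gpr97-deficient pair differed by at least 2-fold in the opposite direction to both wild-type pairs. Smaller opposite differences, such as that of Cyp7b1 (0.94 higher there), are not counted. The deficient pair is 1 array against 1, so none of these differences between genotypes was tested. Rhox6 was 2.66 higher (log2) after injury in that pair, Olfr155 2.04 higher, Cyp2b9 3.79 higher and Chrdl1 1.72 higher, while all 4 were lower in both wild-type pairs. S100a8, with a difference of -1.24, and Ccne1, with -1.20, were lower there and higher in both wild-type pairs. Rhox6, Olfr155 and Cyp2b9 were well above background on the deficient injured array and not on the deficient sham array.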

How the results depend on the processing

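Limma called 0 genes under all 13 alternatives, with 443 (normexp) to 2246 (without injured array 1) at an unadjusted p under 0.05 and a smallest adjusted p of 0.218 (slide as a block) or higher. The labels give no replicate numbers that pair arrays, and the fit with slide as a block, which pairs the sham and injured array of each slide, left 1970 genes at an unadjusted p under 0.05. The counts of 361 higher in both, 281 lower in both, 140 opposite and 362 not overlapping became 195, 175, 49 and 159 under normexp, with 146 of the 361 and 113 of the 281 genes shared, and the share of agreeing genes 2-fold apart in the Gpr97-deficient pair went from 55.1% to 47.0%. Normexp moved the median of all genes on slide 1 from -0.08 to 0.39. With genes above background on all 4 arrays the counts were 237 higher, 62 opposite and 225 not overlapping. At 1.5-fold they were 849, 820 and 464, and at 4-fold 83, 41 and 24. Leaving out 1 array gave 721 to 1830 not overlapping: 1114 without sham array 1, 811 without sham array 2, 1830 without injured array 1 and 721 without injured array 2. Alternatives chosen after seeing the data gave 435 lower and 73 opposite with the Gpr97-deficient pair for slide 2, 847 higher and 983 lower for injured array 2 against each sham array, and 59 opposite on all 4 arrays without sex-linked and sex-biased genes.

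Medians that turned were distal convoluted tubule at 0.15 without injured array 2 (-0.85 without injured array 1), MHC class II at 0.32 without sham array 2 (-2.04 without sham array 1), endothelium at -0.12 under normexp, -0.013 without sham array 2, -0.026 without injured array 1 and -0.11 without injured array 2 (0.17 without sham array 1), and adipocytes at 0.23 under normexp, 0.96 with all 4 arrays above background and 0.95 without sham array 1 (-0.81 without injured array 2). Under normexp the differences of Muc3 (0.47), Olfr155 (0.55), Upp2 (0.12), Cyp2b9 (0.65) and Pnliprp1 (0.35) turned, as did those on slide 1 of Prok2 (1.44), Tmem132cos (0.51), Nanos2 (1.39), Olfr1500 (0.79), Ifne (1.64), Jakmip3 (1.58), Upk2 (0.72), Cfap52 (0.23) and Alas2 (1.48). The cause was not tested.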

Other observations

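Genes of the urothelium, the lining of the renal pelvis, were picked after their values were seen. Upk3a, a uroplakin, was at -0.20 on sham array 1, -7.58 on sham array 2 and -1.93 and -2.12 on injured arrays 1 and 2. Upk2, another uroplakin, was at -1.85 and -7.29 after sham surgery and at -4.13 and -4.21 after injury, and Upk1b, Upk3b and Psca were also highest on sham array 1 and lowest on sham array 2. Krt5, a basal keratin, was at -1.27 and -3.63 after sham surgery and at 0.12 and -0.14 after injury, so it was higher on both injured arrays. The share of pelvis in each piece of kidney was not tested.

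Some red cell transcripts, also picked after their values were seen, were highest on injured array 1 among the wild-type arrays. Hba-a1, an alpha globin, was at 1.23 and 1.97 on the sham arrays and at 5.23 and 1.07 on injured arrays 1 and 2, and Alas2, the erythroid enzyme of haem synthesis, was at -3.50, -3.14, 0.62 and -5.31. Of the 6 measured genes of the red cell list Klf1, Epb42 and Ermap were not highest there, with Klf1, an erythroid transcription factor, at -3.10 on injured array 1 against -2.31 and -2.49 on the sham arrays. The Gpr97-deficient arrays had Hba-a1 at 6.25 and 4.38. Cyp4a14, a fatty acid hydroxylase, was low on sham array 2 alone, at 3.53 against 6.89 to 7.62 on the other wild-type arrays. H2-Ab1, an MHC class II chain of antigen-presenting cells, was at 2.24 and 4.97 on the sham arrays and at 3.56 and 1.5 on injured arrays 1 and 2, lower within each slide.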
